A study of Mus musculus with 2 samples.

Results

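Granulocyte-monocyte progenitors that carry transcripts of the azurophil granule proteins were chosen by their own RNA counts from a single-cell study of mouse bone marrow. A cell barcode was selected on 4 protein-coding transcripts, Elane, Mpo, Prtn3 and Ctsg, which together had to hold at least 0.5% of its unique molecular identifiers (UMIs, the counted RNA molecules). The transcripts S100a8, S100a9, Camp, Ngp and Ltf, which mark later neutrophils, together had to stay under 5%. A barcode also needed at least 500 UMIs, at most 20% mitochondrial UMIs and under 20% of UMIs from the hemoglobin genes Hbb-bt, Hbb-bs, Hba-a1 and Hba-a2. These rules kept 697 of 34089 barcodes of at least 500 UMIs, 505 from the control mouse and 192 from the DKO mouse. They are called the azurophil progenitors here.

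The study sequenced 1 library from each of 2 mice, made with the Chromium Single Cell 3' v3 kit from femoral marrow flushed with PBS. The first mouse is labelled WT and is called the control. By the study's methods the controls were littermates with floxed Ddx41 alleles (Ddx41 fl/fl), wild-type cGas and no VavCre. The other mouse, DKO, was VavCre:Ddx41 fl/fl, cGAS-/-, so both mice carried floxed Ddx41, and the legends put their age at 2 months. The Vav promoter drives Cre recombinase throughout blood cells and in part also in endothelium and germ cells, while cGAS is missing from every cell of the DKO mouse. With 1 mouse per genotype, mouse, library and genotype cannot be told apart, and no test between genotypes was made. All intervals are exact 95% intervals that cover counting error only.

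Granulocyte-monocyte progenitors are dividing marrow cells that give rise to neutrophils and monocytes. At the promyelocyte stage the neutrophil branch fills its first granules, the azurophil granules, with neutrophil elastase (Elane), myeloperoxidase (Mpo), proteinase 3 (Prtn3) and cathepsin G (Ctsg), and the transcripts of these proteins are lost as the later granules form. Ddx41 encodes an RNA helicase of the spliceosome that is also linked to R-loops and DNA sensing, and its human counterpart is mutated in inherited myeloid neoplasms, while cGAS is the cytosolic DNA sensor that sets off interferon signalling.

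The control library held 135693452 UMIs in 1194299 barcodes, 19947 of them with at least 500 UMIs. The DKO library held 117725934 UMIs, and its lowest barcode had 500 UMIs. The control table thus lists barcodes under 500 UMIs, such as droplets without a cell, and the DKO table lists no barcode under that count. The libraries shared 82 barcode sequences of at least 500 UMIs. Of the azurophil progenitors, 0 barcodes were shared, 1 control barcode recurred among all DKO barcodes and 2 DKO barcodes recurred among all control barcodes. The azurophil progenitors were deep, with a median of 23905 UMIs and 5010 genes in the control and 30743.5 UMIs and 5799.5 genes in DKO. Other barcodes with little hemoglobin had medians of 3377.5 and 4160 UMIs. Depth therefore differed between the progenitors and the rest, and also between the libraries. Transcripts of the Y-linked gene Ddx3y were present in both (477 and 264 UMIs in the progenitors) and Xist had 2 and 1 UMIs, so the mice did not differ in this check of sex.

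The values that chose the cells are given as description only. The summed share of Elane, Mpo, Prtn3 and Ctsg, called the azurophil sum, had a median of 1.69% in the control and 1.81% in the DKO progenitors and reached 12.1% and 8.84%. The closest progenitor above 0.5% stood at 0.501% in the control and 0.502% in DKO, and the closest barcode below at 0.498% and 0.495%. The S100a8 group had medians of 0.0517% and 0.0289%. Its closest values inside 5% were 4.99% and 4.25%, its closest outside were 5.24% and 5.45%, and 176 control and 70 DKO barcodes failed on this group alone. For hemoglobin the closest values were 19.998% inside and 20.4% outside in the control, and 19.96% and 21.02% in DKO, with 12 and 4 barcodes failing on it alone. For mitochondrial UMIs they were 15.1% and 20.02% in the control and 11.03% and 29.2% in DKO, with 9 and 1 barcodes failing on it alone. Cells thus lay close to the bound of the azurophil sum on both sides, which is a limit set in a continuous range. Droplets of at most 100 UMIs in the control held 0.230% of UMIs in the azurophil sum and 2.91% in the S100a8 group. B cells, which should make neither, held 0.0102% and 0.00442% of UMIs in the azurophil sum. They were taken with this sum under 0.5%, so their place under the bound was fixed beforehand.

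The genes that the genotype targets come first. Ddx41 stood at 51.8 UMIs per 1000000 UMIs (CPM) in control progenitors (47.8 to 56.0, 616 UMIs) and at 20.7 CPM in DKO progenitors (17.2 to 24.7, 120 UMIs). That is a log2 ratio of DKO over control of -1.31 (-1.62 to -1.04), with -0.98 in the other barcodes with little hemoglobin. Cgas stood at 36.7 CPM (437 UMIs) and 26.6 CPM (154 UMIs), a log2 ratio of -0.46 (-0.74 to -0.20). Both were lower in DKO and neither was at 0. The sequenced 3' ends can lie outside the deleted stretch of either gene, which the sources do not give, so these levels do not check the genotype. Across 4 ranges of the azurophil sum Ddx41 was lower in DKO in each, with 57.01, 46.4, 53.01 and 51.8 CPM in the control and 22.04, 26.2, 13.98 and 18.5 CPM in DKO. Cgas in the same ranges had 40.99, 42.5, 33.1 and 25.01 CPM in the control and 27.6, 24.6, 25.97 and 29.8 CPM in DKO, so in the highest range, with 55 and 29 UMIs, no lower level in DKO was detectable.

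How large a part of the marrow the azurophil progenitors made up was compared next. They were 4.36% of the barcodes with little hemoglobin in the control (505 of 11583, 3.995 to 4.75) and 2.45% in DKO (192 of 7850, 2.12 to 2.81). Of all barcodes with at most 20% mitochondrial UMIs they were 2.56% and 1.38%. Among barcodes of at least 10000 UMIs, a limit set after the data were seen, they were 19.5% (418 of 2147) and 10.3% (163 of 1578). The share was lower in DKO by each of these counts, and the intervals did not overlap. Early neutrophils, taken as Fcnb of at least 0.1% of UMIs with the S100a8 group at 5% or more, were 2.996% (347 barcodes, 2.69 to 3.32) in the control and 3.32% (261 barcodes, 2.94 to 3.75) in DKO, with intervals that overlap. Monocytes, taken by Ly6c2, Ccr2, F13a1 and Csf1r, were 9.38% (1086, 8.85 to 9.92) and 6.96% (546, 6.40 to 7.54). B cells, taken by Cd79a and Cd79b, were 15.8% (1833, 15.2 to 16.5) and 14.3% (1120, 13.5 to 15.1). Neither pair of intervals overlaps, so a lower share in DKO was not particular to the progenitors. The limit of 500 UMIs was applied to both tables, and what else selected the DKO barcodes is not stated, so its part in these shares was not tested.

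The proteins whose transcripts chose the cells have separate tasks in the granule, and each of their levels lay within 1.5-fold between libraries. Elane, the elastase, stood at 7166 CPM in control and 7643 CPM in DKO progenitors, a log2 ratio of 0.09 that became -0.06 with each cell weighted equally. Mpo, which makes hypochlorous acid, stood at 4313 and 5639 CPM (log2 0.39). Prtn3, the target of antibodies in vasculitis, stood at 7459 and 6172 CPM (log2 -0.27), and Ctsg, a chymotrypsin-like protease, at 4526 and 3758 CPM (log2 -0.27). Mpo was thus higher and Prtn3 and Ctsg lower in DKO, within the sum that chose the cells. Among progenitors of at least 10000 UMIs, 418 control and 163 DKO cells, Elane made up a median of 25.4% and 29.9% of a cell's azurophil sum. Mpo made up 18.9% and 25.1%, Prtn3 32.96% and 26.9%, and Ctsg 20.03% and 16.6%. In the control Prtn3 held the largest median share, and in DKO Elane did. Cells varied widely, and the ranges of the libraries overlap: the 10th and 90th percentiles for Elane were 3.61% and 41.1% in the control and 8.08% and 42.7% in DKO. Of the transcripts with an upper limit, S100a8 stood at 2027 and 2116 CPM, S100a9 at 1826 and 1323 CPM, and Camp, a granule peptide of later neutrophils, at 308 and 154 CPM. Ngp stood at 61.7 and 41.6 CPM and Ltf, lactoferrin, at 18.2 and 16.2 CPM.

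**Figure D1:**
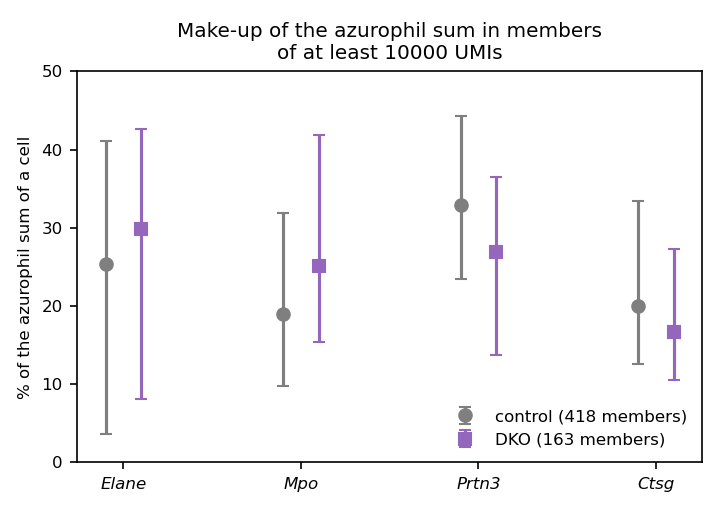
Percent of a cell's azurophil sum held by Elane, Mpo, Prtn3 and Ctsg in progenitors of at least 10000 UMIs (points, median; bars, 10th to 90th percentile of cells, not an error). The Mpo median is 18.9% in the control and 25.1% in DKO, and the ranges overlap for each gene.

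The label was checked against its markers. Ms4a3, a membrane protein of granulocyte-monocyte progenitors that the rule did not use, stood at 1008 CPM in control progenitors (990 to 1026) and 908 CPM in DKO progenitors (883 to 933). In other barcodes with little hemoglobin it stood at 109 and 63.4 CPM. At least 1 Ms4a3 UMI was found in 91.1% of control progenitors (460 of 505) and 90.1% of DKO progenitors (173 of 192). With each cell thinned to 2000 UMIs, which leaves out 47 control and 18 DKO shallower cells, the shares were 70.3% and 68.4%. B cells, taken with an azurophil sum under 0.5%, had median depths of 2534 and 3506 UMIs. They gave 1.15% and 1.43%, and 0.519% and 1.14% when thinned. The marker was thus found far above this background in both libraries. It does not set the progenitors apart from early neutrophils, 89.05% (309 of 347) and 86.6% (226 of 261) of which had a UMI, or 55.9% and 49.4% when thinned. Cd34, a surface protein of immature blood cells, was found in 48.1% and 51.6% of the progenitors, or 11.4% and 9.77% when thinned. In early neutrophils it was found in 0 of 347 control cells (up to 1.057%) and 1 of 261 DKO cells, and in B cells in 0.218% and 0%. Kit was found in 49.7% and 62.5% of the progenitors and in 27.4% and 51.3% of early neutrophils. When thinned these were 8.73% and 15.5% against 4.32% and 10.5%, with overlapping intervals in each library. Kit thus set the progenitors apart from early neutrophils less than Cd34 did. Some other progenitor transcripts also stood above the other barcodes: Cd34 at 79.03 and 75.5 CPM against 14.1 and 8.95, Kit at 57.7 and 85.9 CPM against 23.02 and 26.4, and Myb, a factor of immature cells, at 239.6 and 324 CPM against 84.1 and 100.2. The 14 stem and multipotent progenitor markers summed to 395 CPM in both libraries, against 381 and 316 CPM in the other barcodes, with Cd34 the top gene in the control and Kit in DKO. Of the 14, 7 in the control and 8 in DKO stood above the other barcodes. Without Cd34 and Kit the sums were 258 and 234 CPM against 343 and 281, so the other 12 together stood lower in the progenitors. Ms4a3 was thus present in most cells but not in all, and some cells had a basophil pattern, described further on.

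Genes outside the rule that stood highest over the other barcodes in both libraries describe these cells further, though a gene that moves with the azurophil genes had to rank here. Some of the 25 with the largest smaller ratio are grouped here by known role, with no test of enrichment. Beside Ms4a3, proteins of the granules or their content are Cst7 (167 and 194 CPM, a protease inhibitor), Prss57 (174 and 173 CPM, a serine protease of azurophil granules) and Nkg7 (620.3 and 595 CPM, a granule membrane protein). Dmkn, dermokine, led the order, at 121 CPM against 7.73 in the control and 96.6 against 2.99 in DKO. The machinery that folds secreted proteins was present as Calr (1176 and 1144 CPM), a chaperone of the endoplasmic reticulum that myeloperoxidase needs, with Pdia6, Sdf2l1 and Ssr2. Calr stood 5.73-fold over the other barcodes in the control and 6.86-fold in DKO. Metabolic enzymes were Phgdh (serine synthesis), Srm (spermidine synthesis), Ass1 (arginine synthesis) and Idh2 (mitochondrial isocitrate dehydrogenase). Plac8 was the most abundant of the 25, at 4861 and 3616 CPM. Mcpt8, Prss34 and Cpa3 are basophil and mast cell proteases. The rest were Gstm1, Nrg2, Gria3, Mif, Ramp1, AI506816, Med21 and Cmtm7. On GRCm38, as annotated by GENCODE M21, Elane lies at chr10:79886247-79888215 and Prtn3 at chr10:79874476-79883174, so these are neighbours, and Prss57 lies near them at chr10:79781474-79790961. Ctsg lies at chr14:56099881-56102574 and Mcpt8 at chr14:56082166-56085273, also neighbours, while Mpo lies at chr11:87793581-87804413 and Ms4a3 at chr19:11629496-11640851.

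The progenitors were then ordered by their azurophil sum in 4 ranges, 0.5 to 1%, 1 to 2%, 2 to 4%, and 4% and over, which held 149, 139, 105 and 112 control and 53, 56, 49 and 34 DKO cells. Ms4a3 went with the sum, at 255, 522, 1263 and 2649 CPM in the control and 228, 506, 1300 and 2088 CPM in DKO. Nkg7 had the same order, from 139.9 to 1919.9 CPM in the control and from 170.1 to 1449.9 CPM in DKO. Cebpe, a transcription factor that terminal granulocytes need, stood at 13.3, 30.6, 91.7 and 318 CPM in the control and 35.8, 58.8, 118 and 328 CPM in DKO. In the lowest ranges Cebpe was higher in DKO, and in the highest it was nearly the same. Gfi1, a repressor that works on the neutrophil side and was named after its values were seen, ran from 7.09 to 107 CPM in the control and from 13.8 to 119 CPM in DKO. Fcnb, ficolin of the next granule stage, stood at 299.7 CPM in the highest control range and 545 CPM in the highest DKO range.

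Monocyte-side genes ran the other way. Irf8, the factor that directs progenitors to monocytes and dendritic cells, stood at 575, 457, 290.2 and 16.8 CPM in the control and 488, 414, 224 and 0 CPM in DKO. The highest DKO range of 34 cells had 0 Irf8 UMIs of 974521, against 37 UMIs in the control. F13a1, a coagulation factor subunit of monocytes and their precursors, ran from 1049 to 48.2 CPM in the control and from 1211 to 87.2 CPM in DKO. Ccr2, the receptor that lets monocytes leave marrow, ran from 276 to 5.91 CPM and from 207 to 0 CPM. Ly6c2 was the exception among the surface genes, from 1560 to 1311 CPM in the control and from 1394 to 1730.1 CPM in DKO. Cd34 was at 95.8 and 89.5 CPM in the lowest range and at 7.28 and 6.16 CPM in the highest. Kit did not follow, with 50.2 and 50.5 CPM in the lowest and highest control ranges. In the same DKO ranges it stood at 59.2 and 84.1 CPM. Lyz2, the lysozyme of both lineages, ran from 2121 to 117 CPM in the control and from 1211 to 148 CPM in DKO. The summed chaperones of the endoplasmic reticulum ran from 7271 to 12821 CPM in the control, and in DKO reached 10852 CPM in the third range and 10012 CPM in the highest. These genes are linked to the ordering measure through the cells, so the trends are description.

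**Figure D2:**
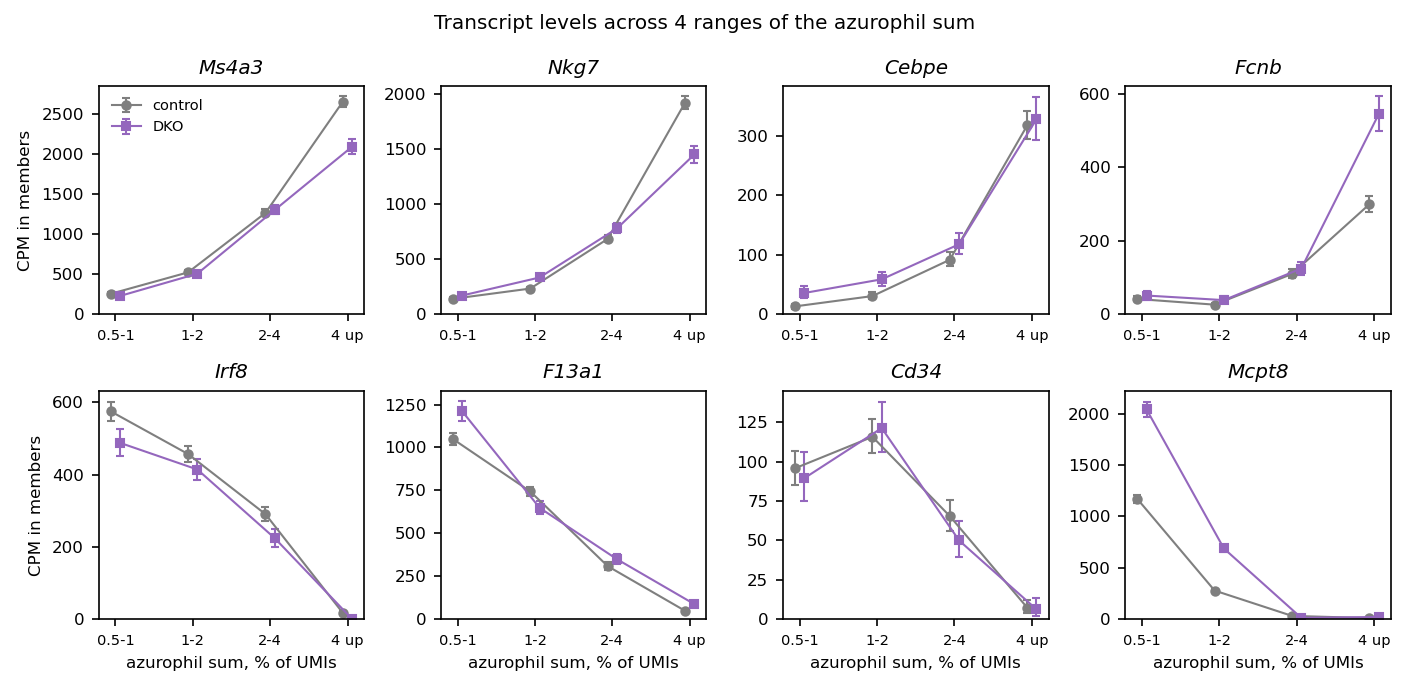
Level in CPM (vertical axis) of 8 genes in progenitors by range of the azurophil sum in percent of UMIs (horizontal axis), control and DKO, with exact Poisson intervals that cover counting error only. Ms4a3, Nkg7, Cebpe and Fcnb are highest at 4% and over, and Irf8, F13a1 and Cd34 are lowest there, while Mcpt8 in DKO is lowest at 2 to 4%.

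Across single cells of at least 10000 UMIs (418 control, 163 DKO) the same arrangement appeared as Spearman correlations, given with no test since cells share a library and parts of the sums overlap in depth. The azurophil sum went with a neutrophil sum of Cebpe, Fcnb, Gstm1 and Gfi1 at 0.71 in the control and 0.77 in DKO. With a monocyte sum of Irf8, Ly86, Csf1r, F13a1, Ms4a6c and Ccr2 it stood at -0.63 and -0.56, and with total UMIs at -0.04 and -0.06. Elane and Prtn3 went together at 0.92 in both libraries. Ms4a3 went with Ctsg at 0.84 and 0.83 and against the monocyte sum at -0.74 and -0.72. The azurophil sum and the chaperone sum stood at 0.72 in the control and 0.44 in DKO.

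The same cells were placed by whether the monocyte sum reached 0.1% of UMIs and the neutrophil sum 0.05%, values set after the data were seen. Monocyte genes only were past their value in 189 control cells (45.2%, 40.4 to 50.1) and 58 DKO cells (35.6%, 28.3 to 43.4). Neutrophil genes only were past theirs in 108 control cells (25.8%, 21.7 to 30.3) and 64 DKO cells (39.3%, 31.7 to 47.2). Both were past in 33 and 13 cells and neither in 88 and 28. The balance lay toward monocyte genes in the control, and in DKO the sides were nearly even. Between libraries the intervals of the monocyte-only shares overlap, and those of the neutrophil-only shares do not. These are ranges of a continuous score and not types, and 81 control and 30 DKO cells lay within 20% of either value. Median azurophil sums were 5.10% and 3.97% on the neutrophil side and 1.18% and 1.51% on the monocyte side.

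Some of the azurophil progenitors had a basophil pattern. Mcpt8, Prss34 and Cpa3 together held at least 0.5% of UMIs, a limit set after the data were seen, in 24 of 505 control and 12 of 192 DKO cells. These cells held 94.9% and 93.9% of all Mcpt8 UMIs of the progenitors and 98.8% and 99.9% of the Prss34 UMIs. They entered through Ctsg (5948 and 4133 CPM) and Mpo (2892 and 2770 CPM), while their Elane stood at 335 and 183 CPM and their Prtn3 at 347 and 202 CPM. Without them Mcpt8 stood at 21.8 and 46.9 CPM. The ratios of basophil genes between the libraries therefore rest on few cells.

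Marker lists of other cell types were summed in the progenitors of each library. Basophil, mast and eosinophil markers summed to 1443 CPM in the control and 2049 CPM in DKO, with Prss34 the top gene. Of their 12 genes 5 reached a mean of 50 CPM, at a median log2 ratio of 0.53, and Ear1 was at 0. Of the 5, 2 (Mcpt8 and Cpa3) were at least 1.5-fold higher in DKO, beside 3.45% of all genes. Both stood below 0 without the top 6% of Scrublet scores (a score of likeness to simulated pairs of cells in a droplet), where the median was -2.32, so nothing is read from this count. Erythroid markers summed to 9830 and 10044 CPM, led by Hbb-bs. Most cells lay far lower: hemoglobin held a median of 0.161% and 0.112% of a progenitor's UMIs. It held at most 1% in 88.9% and 88.5% of progenitors. B cell markers summed to 305 and 225 CPM (top gene Ighm), megakaryocyte markers to 199.9 and 170.2 CPM (Rap1b), and macrophage markers to 133 and 80.7 CPM (Vcam1). Dendritic cell markers summed to 668 and 500.3 CPM, led by Irf8, with Xcr1 at 0 in both and Siglech and Cd209a at 0 in DKO. Mature neutrophil markers summed to 843 and 861 CPM (Slpi), and stromal and endothelial markers to 103 and 90.5 CPM (Pecam1). T and NK cell markers summed to 12.1 and 1.72 CPM. Of these Ncr1 and Gzma were at 0 in both libraries, and Cd3g, Trbc2, Cd8a, Cd4, Klrb1c and Klre1 at 0 in DKO. Counts of marker genes at 0 in the control and DKO library were 1 and 2 of 12 for megakaryocytes, 0 and 1 of 12 for macrophages and 1 and 3 of 12 for stroma and endothelium. None of 12 was at 0 for B cells, erythroid cells or mature neutrophils. Some of these transcripts were taken out in the alternatives. Genes at least 1.5-fold higher and lower in DKO numbered 116 and 36 with all progenitors. Without barcodes with 3 or more UMIs of other lineage markers, which leaves 316 control and 120 DKO cells, they numbered 166 and 42, of which 86 and 26 were among the former. With hemoglobin under 5% they numbered 126 and 40, and the median of the erythroid markers went from 0.06 to -0.60. The hemoglobin genes among those markers belong to the rule and this setting limits them, so nothing is read from that median. Without the basophil-type cells, a setting chosen after the data were seen, they numbered 108 and 38. More genes were thus higher than lower in each of these, while which genes counted depended on the cells kept.

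Levels of every gene were then compared between the DKO and control progenitors, the question being how the genotypes differ in these cells. Of 3363 genes with a mean of at least 50 CPM, 116 (3.45%) were at least 1.5-fold higher in DKO and 36 (1.07%) at least 1.5-fold lower. The median log2 ratio was 0.01. With each cell weighted equally, 229 of 3389 genes were higher and 71 lower. In the other barcodes with little hemoglobin 107 of 3585 were higher and 58 lower. In monocytes 87 of 3591 were higher and 66 lower, and in early neutrophils 445 of 2741 were higher and 83 lower. Most genes in the progenitors thus lay within 1.5-fold, as did those in monocytes, while early neutrophils spread wider.

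Among the 12 genes of at least 100 CPM with the lowest ratio, the rule genes apart, the histone gene Hist1h2ap stood at 925 and 220.2 CPM (log2 -2.07). The ribosomal pseudogene Gm10076 stood at 737 and 306 CPM (log2 -1.27). Like Hist1h2ae (log2 -0.69), these share sequence with copies elsewhere in the genome, so their counts depend on how reads were assigned. Chil3, a chitinase-like protein of myeloid cells, stood at 209 and 73.1 CPM (log2 -1.51). Ifitm3, an interferon-induced block to virus entry, stood at 262 and 99.7 CPM (log2 -1.39), and Bst2, an interferon-induced virus tether, at 166 and 95.2 CPM (log2 -0.80). In control droplets of at most 100 UMIs Chil3 stood at 722 CPM, Ifitm3 at 342 CPM and Hist1h2ap at 519 CPM. Chil3 and Ifitm3 were thus higher there than in control progenitors, and Hist1h2ap lower. No such droplets are listed for DKO, and the part of such RNA in these ratios was not tested. Ctsc, the protease that activates elastase, proteinase 3 and cathepsin G, stood at 159 and 83.8 CPM (log2 -0.92). Lgals3 (log2 -0.90) and Lyz2 (log2 -0.76) are expressed by mature myeloid cells, and Erh (log2 -0.70) and Hnrnpdl (log2 -0.69) act in RNA processing. Each of these had a ratio below 0 in the other barcodes as well. The order of size differed there, for Chil3 stood at -0.45 and Bst2 at -1.35.

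Among the 12 with the highest ratio, Rsrp1, an arginine and serine rich protein, stood at 258 and 592 CPM (log2 1.20). Pde4d, which breaks down cyclic AMP, stood at 425 and 799 CPM (log2 0.91), and Igf1r, the receptor of insulin-like growth factor, at 165 and 281 CPM (log2 0.76). Mcpt8 (417 and 739.8 CPM, log2 0.83) and Cpa3 (119.7 and 222 CPM, log2 0.89) are the basophil genes described above, and their ratios were below 0 when barcodes with high doublet scores or with markers of other lineages were left out. Arsb, a lysosomal sulfatase, had a log2 ratio of 0.83, and Pip5k1b, a lipid kinase, 0.98. Others were Mctp1 (0.86), Lcorl (0.77), Ankrd28 (0.77) and Lrmda (0.77). In the other barcodes Mcpt8 and Cpa3 had ratios below 0, and the rest of those named here had ratios above 0.

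**Figure D3:**
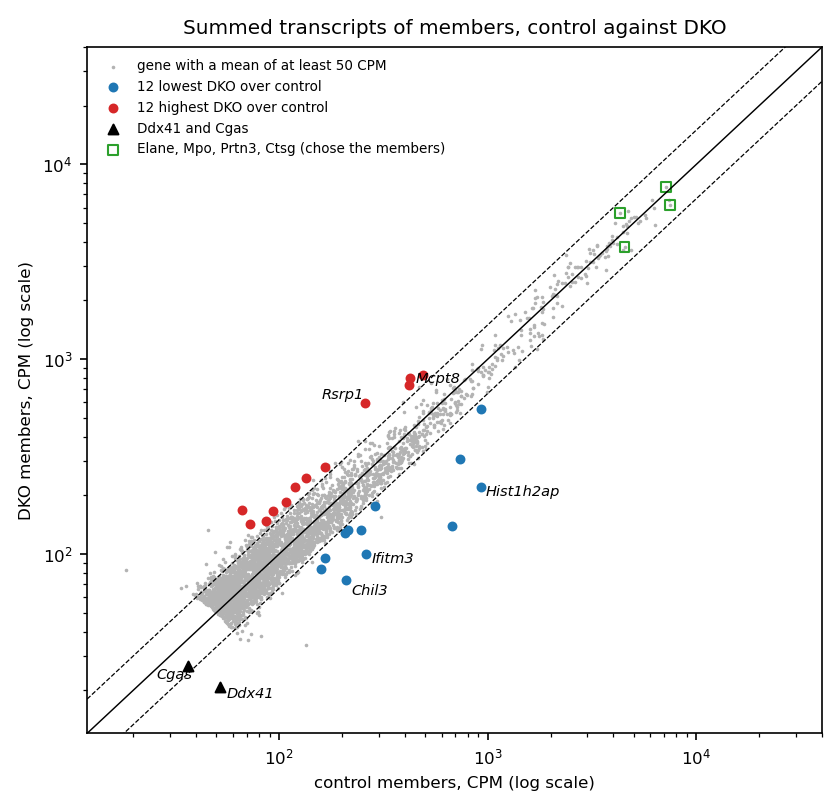
Summed level of each gene in CPM in control (horizontal axis) and DKO progenitors (vertical axis), both on log scales, with equality as a solid line and 1.5-fold as dashed lines. Of 3363 genes 116 lie above and 36 below the dashed lines, and Elane, Mpo, Prtn3 and Ctsg lie between them.

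Many of the genes with high ratios are long. Grouped after the data were seen by their span on the genome, 468 genes under 5 kb had a median log2 ratio of -0.18, and 1016 genes of 5 to 20 kb had -0.17. Genes of 20 to 100 kb (1350) had 0.11, and 528 genes of 100 kb and over had 0.38, with 79 of the 116 higher genes and 0 of the 36 lower genes. The other barcodes had the same order, at -0.23, -0.17, 0.13 and 0.28. The ratio went with gene span in both sets of cells, and the source of this was not tested. Runx1, which the blood system needs, was among the long genes with a high ratio (393 and 599.97 CPM, log2 0.61).

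Lists of genes were compared in order of their roles, each beside the median of 0.01 and the shares of 3.45% and 1.07% over all genes. Of 21 azurophil and early granule genes outside the rule, 18 reached 50 CPM, with a median of -0.02, 1 higher (Arsb) and 2 lower (Ctsc and Lyz2). Its median ran from -0.12 to 0.05 over the alternatives, so it had no settled sign. Of 17 chaperone and secretory genes that reached 50 CPM, 0 were past 1.5-fold, at a median of -0.11. Hspa5, the main chaperone of the endoplasmic reticulum, stood at 564 and 695 CPM, while Pdia6, an isomerase of disulfides, stood at 661 and 468 CPM. Granule genes as a group were thus near the genome-wide median. The medians of the lists of transcription factors, receptors, neutrophil granule, S phase, G2 and mitosis, ribosome biogenesis, spliceosome and BCL2 genes, given next, also took both signs over the alternatives.

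Of 17 myeloid transcription factors at 50 CPM, 3 were higher in DKO and 0 lower, at a median of -0.01 that reached 0.31 at 200 CPM. The 3 were Runx1, Fli1 (185 and 292 CPM, log2 0.66) and Nfe2 (42.1 and 63.8 CPM, log2 0.60). Cebpa, which progenitors need to enter the granulocyte path, stood at 86.4 and 102 CPM, and Cebpe at 92.6 and 114 CPM. Irf8 stood at 370.3 and 314 CPM and Spi1, the myeloid factor PU.1, at 296 and 254 CPM. Of 13 growth factor and chemokine receptors 1 was higher, Cxcr4, which holds cells in marrow (94.8 and 155 CPM, log2 0.70), at a list median of 0.07. Cxcr4 was higher in the other barcodes as well (log2 0.76). Csf1r, the receptor for the monocyte growth factor, was level at 43.3 and 43.3 CPM, and Csf3r, that of the neutrophil growth factor, stood at 60.2 and 75.02 CPM.

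Of 13 monocyte lineage genes 1 was lower (Lgals3) and 0 higher, at a median of -0.30, which ran from -0.34 without barcodes with other lineage markers to -0.13 with the azurophil sum at 0.25% or more. Its sign thus held in the alternatives run and its size did not. Lgals3 stood at -0.55 with that azurophil sum, under 1.5-fold. In the other barcodes the median was -0.28. Of 15 neutrophil granule genes, at a median of -0.22, 4 (S100a8, S100a9, Camp and Ngp) belong to the group that chose the cells, so nothing is read from their ratios. The 11 outside it had a median of -0.13, with 5 above 0 and 2 lower (Chil3 and Lyz2). Fcnb stood at 99.6 and 149 CPM (log2 0.58).

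Of 47 interferon-stimulated genes that the files name, 5 reached 50 CPM, all below 0, with a median of -0.58 and 2 lower, Ifitm3 and Bst2. The other barcodes had a median of -0.54. Isg15, a ubiquitin-like modifier under the 50 CPM limit, stood at 14.96 CPM (178 UMIs) and 9.48 CPM (55 UMIs). In other barcodes it stood at 53.1 and 12.95 CPM, so the progenitors were already low in the control. Of 7 nucleic acid sensing genes 0 were past 1.5-fold (median -0.16). The median of the interferon genes stayed below 0 in all alternatives run, but ran from -0.67 with the azurophil sum at 1% or more to -0.27 for genes of at least 200 CPM.

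Of 5 genes of Trp53 and its targets 0 were past 1.5-fold (median -0.07), with Trp53 at 136 and 129.7 CPM and Cdkn1a, its cell cycle inhibitor, at 12.9 and 11.4 CPM. Of 16 DNA damage and R-loop genes 1 was higher, Brip1, a helicase (40.6 and 65.9 CPM), at a median of 0.17. Of 20 spliceosome genes 0 were past 1.5-fold (median -0.03), of 5 BCL2 family genes 0 (median -0.16), and of 7 integrated stress response genes 0 (median -0.14). Of 4 genes of the NF-kB and AP-1 response 1 was lower, Jund (82.2 and 37.8 CPM, log2 -1.12), at a median of -0.24. The 77 genes of ribosomal proteins had a median of 0.08 with 51 above 0 and 0 past 1.5-fold. Their median was -0.18 in the other barcodes, -0.13 in early neutrophils and 0.01 in monocytes. Of 28 ribosome biogenesis genes 0 were past 1.5-fold (median -0.11), and 10 mitochondrially encoded genes had a median of 0.14 with 0 past it. The medians in this group of lists lay between -0.24 and 0.17.

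Cell cycle transcripts were read as shares of cells. Genes of G2 and mitosis made up at least 1% of UMIs in 30.9% of control (156 of 505) and 29.2% of DKO progenitors (56 of 192), and in 35.4% and 31.0% with cells thinned to 2000 UMIs. In B cells, at lower depth, the shares were 5.62% and 6.70%, or 7.34% and 6.94% when thinned. In early neutrophils they were 52.2% and 57.5%, or 51.2% and 59.1% when thinned. In monocytes they were 30.1% and 23.8%, or 30.5% and 25.2% when thinned. A high share was thus not particular to the progenitors. S phase genes made up at least 1% in 0.594% (3 cells) and 3.65% (7 cells) of the progenitors. When thinned they did so in 3.49% and 6.90%, and in 3.71% and 1.62% of B cells. The median part of UMIs in S phase genes was 0.508% and 0.520% in progenitors, against 0.0830% and 0.0819% in B cells. The G2 and mitosis shares of the progenitors did not differ beyond counting error between libraries. The shares of cells with at least 1% in S phase genes rest on few cells, and when thinned their intervals overlap (2.01 to 5.61 and 3.61 to 11.7). Of 34 S phase genes 0 were past 1.5-fold (median 0.07), and of 39 G2 and mitosis genes 1 was higher, Hjurp, which loads centromere histones (78.4 and 123 CPM), at a median of -0.04. Mki67 stood at 236 and 267 CPM. Across the ranges of the azurophil sum Mki67 ran from 359.96 to 129 CPM in the control and from 400.1 to 176 CPM in DKO.

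The genes that the cells were chosen by and their marker Ms4a3 go together across cells, so the 250 bases before their RefSeq starts (GRCm38.p6) are printed to show which letters they hold. Capitals mark GAGGAAG, letters bound by PU.1 and other ETS factors, and CAACGG, letters of MYB, each searched on both strands. GAGGAAG occurs in 10.6% of 32851 promoters of this length and CAACGG in 4.05%. The first 4 are the genes of the rule, and Ms4a3 is shown as the marker outside it that holds neither. The GENCODE spans of Elane, Prtn3 and Mpo begin before their RefSeq starts. The windows are chr10:79886062-79886311 (+) for Elane, chr10:79879417-79879666 (+) for Prtn3, chr11:87793534-87793783 (+) for Mpo, chr14:56102575-56102824 (-) for Ctsg and chr19:11640852-11641101 (-) for Ms4a3.
Elane: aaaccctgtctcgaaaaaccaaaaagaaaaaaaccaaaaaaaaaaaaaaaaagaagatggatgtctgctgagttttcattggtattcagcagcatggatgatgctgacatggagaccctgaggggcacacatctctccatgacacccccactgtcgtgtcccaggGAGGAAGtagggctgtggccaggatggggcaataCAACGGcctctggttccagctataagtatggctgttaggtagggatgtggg
Prtn3: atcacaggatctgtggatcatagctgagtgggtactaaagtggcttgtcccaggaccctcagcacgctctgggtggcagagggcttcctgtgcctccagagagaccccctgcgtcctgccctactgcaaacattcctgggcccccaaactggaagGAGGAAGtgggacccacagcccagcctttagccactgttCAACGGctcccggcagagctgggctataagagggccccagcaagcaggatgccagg
Mpo: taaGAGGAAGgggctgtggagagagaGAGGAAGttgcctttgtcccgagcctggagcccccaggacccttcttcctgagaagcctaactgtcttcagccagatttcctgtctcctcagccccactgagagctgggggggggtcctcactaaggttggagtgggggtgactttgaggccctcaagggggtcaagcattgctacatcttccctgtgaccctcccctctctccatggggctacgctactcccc
Ctsg: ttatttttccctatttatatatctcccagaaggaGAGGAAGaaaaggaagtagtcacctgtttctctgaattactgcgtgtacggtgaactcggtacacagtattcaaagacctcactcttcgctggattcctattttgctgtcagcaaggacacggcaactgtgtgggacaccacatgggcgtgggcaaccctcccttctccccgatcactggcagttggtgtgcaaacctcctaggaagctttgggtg
Ms4a3: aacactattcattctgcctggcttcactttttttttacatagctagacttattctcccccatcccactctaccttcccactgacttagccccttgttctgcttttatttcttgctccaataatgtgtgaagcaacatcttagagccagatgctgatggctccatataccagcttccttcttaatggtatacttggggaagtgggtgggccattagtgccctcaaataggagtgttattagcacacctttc
GAGGAAG is in 4 of the 5 windows, at 85 to 79 bases before the start in Elane, 95 to 89 in Prtn3, 247 to 241 and 224 to 218 in Mpo, and 216 to 210 in Ctsg. CAACGG is in Elane (51 to 46 bases before the start) and Prtn3 (56 to 51), so these neighbours hold the same pair of letters in the same order. TTNNGNAA, letters of C/EBP factors, occurs in 36.8% of promoters and in the Ms4a3 window, and TGTGGT, of RUNX factors, in 14.05% and in the Ctsg window on the reverse strand. Of the 25 genes highest over the other barcodes, 20 had a promoter in the table, of which 1 holds GAGGAAG (Med21) and 0 hold CAACGG. Of the same 20, 6 hold TTNNGNAA and 5 hold TGTGGT, beside 40.3% and 15.9% of all genes with a promoter. The motifs were chosen after the data were seen, and a match is a description of letters and not a site of binding.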

How the data were processed

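Single-cell RNA of femoral bone marrow was measured in 1 control and 1 DKO mouse. The deposited tables hold UMI counts, made by the authors with Cell Ranger (7.1.0 per the file headers) on mm10 per the submitters' processing notes. Counts were summed over cells with Python 3.11.15, numpy 2.4.6, scipy 1.17.1 and pandas 2.3.3, scaled to CPM, and compared as log2 ratios with 1 count added. A gene needed a mean of at least 50 CPM, and 1.5-fold is the limit for a count. Levels have exact Poisson, shares exact Clopper-Pearson and ratios exact conditional binomial intervals. Depth was 135693452 UMIs (control) and 117725934 UMIs (DKO).

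The cells and the gene lists were chosen with earlier results of these data known. Named by rule were the 25 genes of at least 100 CPM with the largest smaller ratio over other barcodes, genes among the 12 highest and 12 lowest DKO ratios, not all of which are described, genes past 1.5-fold in lists, and each list's most abundant genes. Rule genes, Ddx41 and Cgas were kept out of the 12 and 12, a reading settled after values were seen. Other genes were named for their roles after their values were seen, as were the gene span groups, motifs, monocyte and neutrophil sums, and basophil and B cell limits. Monocytes needed at least 0.3% of UMIs in 4 genes and under 0.5% in Ltf, Camp and Ngp. B cells needed at least 0.2% in Cd79a and Cd79b. Both needed under 0.5% in the azurophil sum.

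Scrublet (scanpy 1.11.5) set a limit that marked 0 of 19764 control barcodes, so it did not work there, and 198 DKO barcodes, none of them progenitors. No barcode was left out as a doublet in the values given, and an alternative left out the top 6% of scores, 37 control and 48 DKO progenitors. Of 32285 identifiers 32158 matched GENCODE M21. Promoters came from RefSeq. In all, 16 alternatives were planned and 2 were added after seeing the data. Reads and protein were not used here.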

Additional observations from a re-analysis of the deposited data

How the results depend on the processing

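The share of azurophil progenitors was lower in DKO under each alternative that changes which barcodes are counted. The control share was 5.38% at 2000 UMIs and 3.95% with the S100a8 group under 2%. Shares were 3.07% and 1.77% (control, DKO) with the azurophil sum at 1% or more, 5.603% and 3.16% at 0.25%, and 19.5% and 10.3% at 10000 UMIs, a setting chosen after seeing the data. The DKO share was 1.96% without the top 6% of Scrublet scores. Genes higher and lower in DKO numbered 229 and 71 with each cell weighted equally, 289 and 79 at 20 CPM, 11 and 10 at 200 CPM, and 5 and 7 at 2-fold, where the limits themselves set how many genes can count. More genes were higher than lower in each setting except at 2-fold. Of the 116 higher genes, 60 remained without the top 6% of Scrublet scores and 93 with each cell weighted equally. Mcpt8 reversed to -2.60 and Cpa3 to -2.05 without those scores, and to -0.11 and -2.20 without barcodes with 3 or more UMIs of other lineage markers. The latter setting uses Mcpt8 and Prss34 themselves, and for the doublet scores the cause was not tested. Prss34 (0.31) stood at -9.13 and -1.76 in these settings, and at -2.65 without basophil-type cells, a setting chosen after seeing the data. Of the other values of named genes, 653 stayed within their interval and 183 moved. Of these 6 and 19 had the opposite sign, among them Elane, Ms4a3, Nkg7, S100a8 and 3 hemoglobin genes, all under 1.5-fold in the values given. Of the list medians 389 stayed within 0.1 and 68 moved. No paired analysis was possible because each genotype has 1 library. The precision is limited by 192 DKO cells, and no alternative removes the difference in mouse and library.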
